A study of Mus musculus with 8 samples.

Results

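Described here are 10 receptor genes through which the brain reads hormones and peptides of appetite and of the gut, in fasted and fed mouse brain. They are Glp2r, Glp1r, Lepr, Mc3r, Mc4r, Npy1r, Npy2r, Npy5r, Cckbr and Hcrtr1, 10 of the 30159 gene names on the array. The set was chosen by its theme and from values of the same fasted against fed comparison that is described here, so the differences of its members are a description. No p-value of this comparison is printed for any of them. Which of them passed a threshold is stated below as a description only, and their number supports nothing. All non-control probes that carry one of these names were taken, which gave 18 of 39429 probes.

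Total RNA of dissected brain was labelled with Cy3 and read on 8 single-colour arrays, 4 from mice fasted for 17 h and 4 from fed mice. The design text gives the same 17 h for both conditions. The labels name no strain, sex, age, brain region or number of mice per sample. The p-values below therefore set a difference only against how far these samples vary within their groups, and that spread may be technical. In whole tissue, fewer cells of a type and less RNA per cell cannot be told apart.

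Appetite is set in the hypothalamus and brainstem by neurons that carry receptors for blood-borne hormones and for local peptides. Leptin from fat, glucagon-like peptides from the gut and brainstem, and cholecystokinin reduce food intake, as does alpha-MSH acting on the melanocortin receptors, where the agouti-related peptide AgRP opposes it. Neuropeptide Y and the orexins promote feeding. Apart from the leptin receptor, which is a cytokine receptor coupled to JAK2 and STAT3, all members are receptors coupled to G proteins.

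The probes are 60 bases long, and what a probe reads depends on where in the transcript it lies. Coordinates are those of the array design on mm9, and the exon, coding part or untranslated region under each probe was not determined here. The first set shows both probes of Glp2r, on the minus strand of chromosome 11, because they gave unlike results. A_55_P2073452 lies at chr11:67519964-67520023, and its first 30 bases are printed. A_51_P125882 is printed whole. Its coordinates, chr11:67525830-67535508, span 9679 bases, so its 60 bases are divided by a gap of 9619 bases, and 5806 bases lie between the probes.
Glp2r A_55_P2073452, first 30 bases: ctgcaatgctgataatgtgttccttttatc
Glp2r A_51_P125882: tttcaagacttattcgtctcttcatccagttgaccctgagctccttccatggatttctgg

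The second set shows both probes of Glp1r, on the plus strand of chromosome 17, because they cover nearly the same bases and are not the same sequence. A_55_P2016471 lies at chr17:31073256-31073315 and A_55_P2132089 at chr17:31073261-31073320, an overlap of 55 bases. Within the overlap they differ at 3 bases, which stand in capitals. Counted from 1 at the 5′ end of A_55_P2132089, with the base of that probe first, the substitutions are T3C, C6T and A12G.
Glp1r A_55_P2016471: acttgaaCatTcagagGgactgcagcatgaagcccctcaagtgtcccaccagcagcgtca
Glp1r A_55_P2132089: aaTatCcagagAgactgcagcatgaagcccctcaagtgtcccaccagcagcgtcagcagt

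The third set shows 4 probes of Lepr, on the plus strand of chromosome 4, because the RefSeq transcripts they match differ in part. The gene makes a long form with a signalling tail and short forms without it. A_55_P2177910 (chr4:101452666-101452725) matched the RefSeq transcript NM_010704, and A_55_P2177911 (chr4:101464615-101464674) matched NM_010704 and NM_146146. A_55_P2192662 (chr4:101485725-101485784) matched NM_001122899, and A_66_P130517 (chr4:101487858-101487917) matched NM_146146. Only A_55_P2177911 is printed whole, and the first 30 bases of the others are given.
Lepr A_55_P2177910, first 30 bases: aattccctcggcgcttcccttgtgaatttt
Lepr A_55_P2177911: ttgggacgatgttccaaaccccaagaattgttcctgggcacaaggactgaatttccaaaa
Lepr A_55_P2192662, first 30 bases: tgaaggaaatcacaaaggttctgtcggaca
Lepr A_66_P130517, first 30 bases: gtgacttaactgtgtaatctcatccaagaa

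A last sequence is that of Cckbr A_51_P506201 (plus strand, chr7:112582327-112582546), shown because its coordinates span 220 bases with a gap of 160 bases, while the other Cckbr probe, A_52_P596375, lies in 1 piece at chr7:112584581-112584640.
Cckbr A_51_P506201: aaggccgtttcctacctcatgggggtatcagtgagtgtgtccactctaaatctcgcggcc

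A stop codon interrupts all 3 sense reading frames in 2 of the 18 probes, Lepr A_66_P130517 and the Npy2r probe A_55_P1977676, and in 20.4% of all 39429 probes. Both were among the 3 probes of the set that were not kept, by the rule given next.

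Levels are given as the log2 of the processed signal minus the log2 of the array's own 75th percentile, so that 0 is the brightness of the probe at that percentile. Levels of different probes are not set against each other, since each probe binds with its own strength. A probe was kept when it was well above background, by the scanner's own call, on at least 4 of the 8 arrays. This held for 15 of the 18 probes, each of them well above background on all 8 arrays, and all 10 genes had at least 1 kept probe. The lowest signal that counted as well above background averaged -4.74 on this scale.

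**Figure D1:**
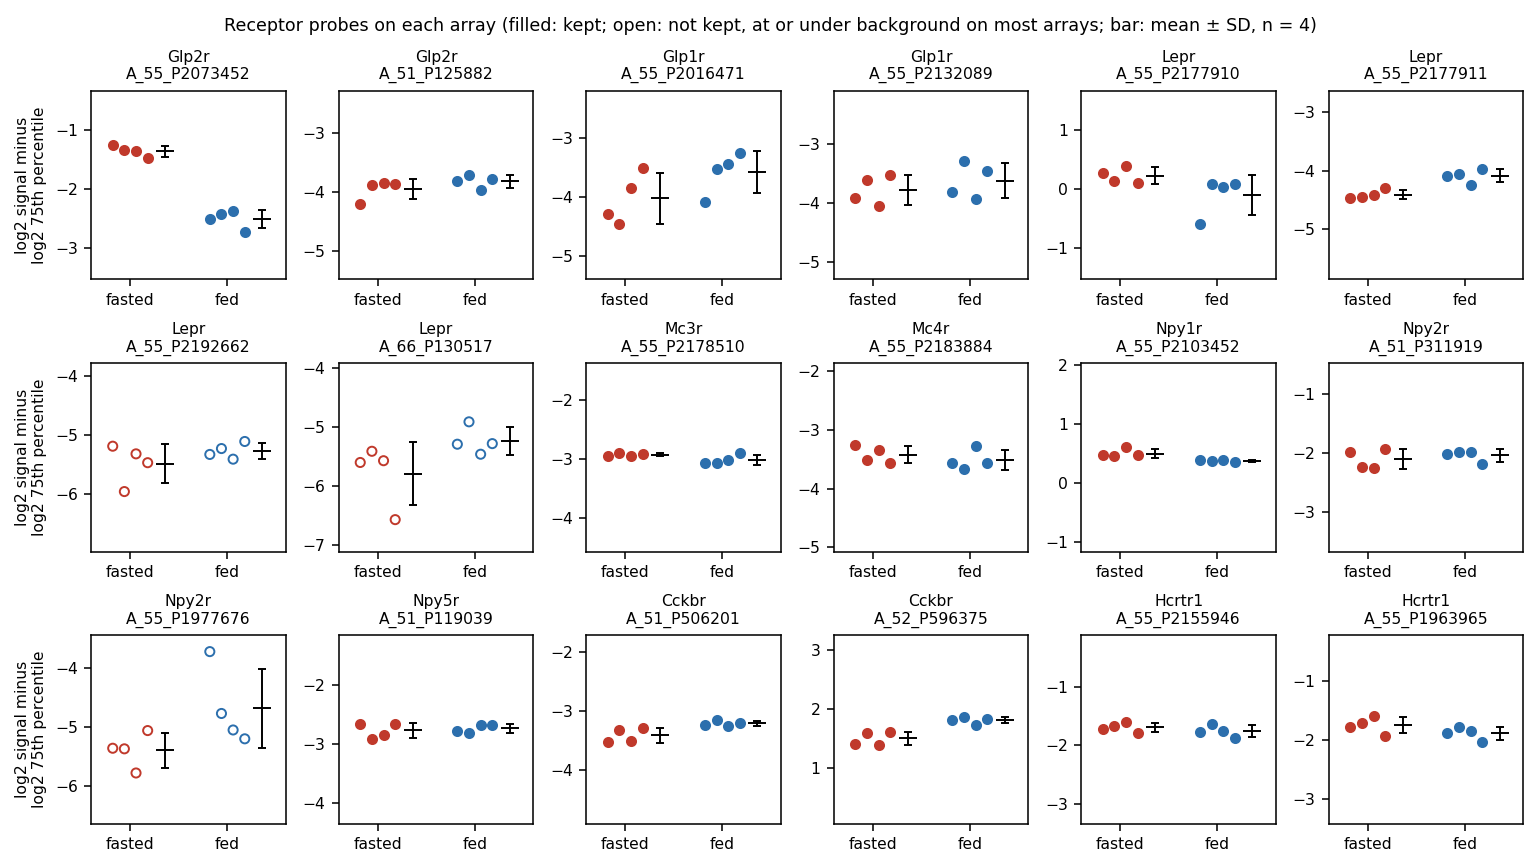
Level of each of the 18 receptor probes on each array, in log2 signal minus the log2 of the array's 75th percentile, with fasted arrays left and fed arrays right in each panel and with bars for the mean ± SD of 4 arrays. Filled points are kept probes and open points are the 3 probes that were not kept. In Glp2r A_55_P2073452 the fasted arrays lie between -1.48 and -1.26, all above the fed arrays at -2.72 to -2.37.

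Glp2r, the receptor for the gut peptide GLP-2, had the largest difference of the set, on 1 of its 2 probes. A_55_P2073452 had levels of -1.26, -1.34, -1.36 and -1.48 in fasted brain, against -2.51, -2.43, -2.37 and -2.72 in fed brain. The lowest fasted array, at -1.48, was well above the highest fed array, at -2.37, and each fasted array was higher than the fed array of the same number. Fasted brain averaged -1.36 ± 0.09 and fed brain -2.51 ± 0.15 (SD, n = 4 each), a log2 difference of 1.15 ± 0.08 (SE of the fit), which is 2.22-fold. The difference was 1.17 on slide 1 and 1.13 on slide 2, and 1.08 to 1.19 with any 1 array left out. In processed signal the means were 718 and 301, and the scanner's own error was at most 12% of the signal. Among the 26066 kept probes of the array it ranked 41 by size of difference.

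The other Glp2r probe did not show this. A_51_P125882 had levels of -4.21, -3.88, -3.86 and -3.87 in fasted brain, against -3.82, -3.72, -3.98 and -3.79 in fed brain. The groups overlapped, with a log2 difference of -0.13 ± 0.09, -0.27 on slide 1 and 0.02 on slide 2. This probe was dim, only 0.58 to 1.17 above the lowest level well above background, with a mean signal of 119 in fasted and 120 in fed brain. The differences of the 2 probes lay 1.27 apart on the log2 scale. Which of them follows the Glp2r message was not tested.

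Genes next to the Glp2r probe gave small differences where they were measured. Gsg1l2 and Dhrs7c, also nearby, were well above background on 0 and 1 of the 8 arrays and were not kept. Rcvrn, on the opposite strand at a distance of 3241 bases, differed by -0.29 ± 0.15 (log2, SE; limma adjusted p = 0.224 over all kept probes). Gas7, also on the opposite strand, gave 0.23 ± 0.05 (adjusted p = 0.0168) and 0.26 ± 0.11 (adjusted p = 0.162) on its 2 probes nearby. Across the 8 arrays the genes whose levels were most like those of A_55_P2073452, of 16107 compared, were Ublcp1 (Pearson r = 0.994), Pygm (r = 0.994) and Erc2 (r = 0.991). Their own log2 differences were 0.13, 0.33 and 0.22, so their pattern was alike in shape and smaller in size. These correlations hold the fasted against fed step within them and are a description of 8 arrays.

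Glp1r, the receptor for GLP-1, was dim and did not separate the groups on either probe. A_55_P2016471 had levels of -4.28, -4.46, -3.84 and -3.51 in fasted brain, against -4.08, -3.53, -3.44 and -3.25 in fed brain. The log2 difference was -0.45 ± 0.24, -0.57 on slide 1 and -0.33 on slide 2. A_55_P2132089 had levels of -3.91, -3.61, -4.06 and -3.53 in fasted brain, against -3.81, -3.29, -3.93 and -3.45 in fed brain. Here the difference was -0.16 ± 0.17. On both probes the fasted array was below the fed array of the same number in all 4 pairs, while the groups as a whole overlapped. With the replicate number as a block in the fit, the SE was 0.13 on A_55_P2016471 and 0.05 on A_55_P2132089. With slide as a block it was 0.14 and 0.18. The arrays of a group lay far apart. A_55_P2016471 had SDs of 0.43 in fasted and 0.36 in fed brain, and A_55_P2132089 had SDs of 0.25 in fasted and 0.30 in fed brain.

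Lepr, the leptin receptor, gave opposite differences on its 2 kept probes. A_55_P2177910 had levels of 0.28, 0.13, 0.40 and 0.10 in fasted brain, against -0.60, 0.09, 0.04 and 0.09 in fed brain. The groups did not overlap, but 3 fed arrays lay within 0.1 of the lowest fasted array, and fed replicate 1 lay well below the other fed arrays. The log2 difference was 0.32 ± 0.16, and it was 0.15 without fed replicate 1. The mean signal was 2169 in fasted and 1637 in fed brain. A_55_P2177911 had levels of -4.47, -4.45, -4.41 and -4.30 in fasted brain, against -4.09, -4.06, -4.24 and -3.97 in fed brain. All fasted arrays were below all fed arrays, with a difference of -0.32 ± 0.07. This probe lay only 0.28 to 0.90 above the lowest level well above background, with a mean signal of 86.6 in fasted and 101 in fed brain and a scanner error of 15.6% to 20.7% of the signal. The probes A_55_P2192662 and A_66_P130517 were well above background on 0 of the 8 arrays, so no difference is given for them.

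Mc3r and Mc4r, the melanocortin receptors of the brain, each have 1 probe, and both showed overlapping groups. Mc3r (A_55_P2178510, plus strand, chr2:172076555-172076614) had levels of -2.95, -2.89, -2.94 and -2.92 in fasted brain, against -3.07, -3.06, -3.02 and -2.89 in fed brain. The fasted arrays lay close together, and 3 of the 4 fed arrays were below them, with a log2 difference of 0.09 ± 0.05. Mc4r (A_55_P2183884, minus strand, chr18:67018696-67018755) had levels of -3.26, -3.52, -3.34 and -3.57 in fasted brain, against -3.56, -3.66, -3.27 and -3.57 in fed brain. The values of both groups were mixed, with a difference of 0.09 ± 0.10, 0.22 on slide 1 and -0.03 on slide 2.

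Of the receptors for neuropeptide Y, Npy1r had fully separate groups with a small difference, and Npy2r and Npy5r did not separate. Npy1r (A_55_P2103452, plus strand, chr8:69230632-69230691), the Y1 receptor, had levels of 0.47, 0.46, 0.61 and 0.47 in fasted brain, against 0.39, 0.37, 0.39 and 0.36 in fed brain. Its log2 difference was 0.12 ± 0.04, which is 1.09-fold, with 0.08 on slide 1 and 0.16 on slide 2. Fasted replicate 3 was above the other 3 fasted arrays, which lay between 0.46 and 0.47, and all of these were above every fed array. Npy2r, the Y2 receptor that acts on the releasing neuron itself, had levels of -1.97, -2.24, -2.25 and -1.93 in fasted brain, against -2.01, -1.98, -1.97 and -2.19 in fed brain on A_51_P311919 (minus strand, chr3:82342675-82342734). Its difference was -0.06 ± 0.09. The other Npy2r probe, A_55_P1977676 (minus strand, chr3:82343900-82343959), was well above background on 0 fasted arrays and 1 fed array and was not kept. Npy5r (A_51_P119039, minus strand, chr8:69204446-69204505), the Y5 receptor, had levels of -2.66, -2.91, -2.85 and -2.66 in fasted brain, against -2.78, -2.81, -2.67 and -2.67 in fed brain. Its groups were mixed, with a difference of -0.04 ± 0.07.

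Cckbr, the cholecystokinin receptor that prevails in brain, was lower in fasted brain on both probes. A_52_P596375 had levels of 1.41, 1.59, 1.39 and 1.6 in fasted brain, against 1.81, 1.86, 1.73 and 1.82 in fed brain. All fasted arrays were below all fed arrays. Fasted brain averaged 1.5 ± 0.12 and fed brain 1.80 ± 0.05 (SD, n = 4 each), a log2 difference of -0.31 ± 0.06, which is 1.24-fold. It was -0.33 on slide 1 and -0.28 on slide 2. A_51_P506201 had levels of -3.52, -3.31, -3.51 and -3.29 in fasted brain, against -3.23, -3.14, -3.25 and -3.20 in fed brain. These groups did not overlap either, with a difference of -0.20 ± 0.06, -0.23 on slide 1 and -0.17 on slide 2. Among the genes with 2 kept probes, only Cckbr had separate groups in the same direction on both. Separate groups were found for 24.8% of all kept probes, and nothing is read from this.

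Hcrtr1, a receptor for the orexins, is read by 2 probes that share 52 bases of the same sequence and so are close to 1 measurement. A_55_P2155946 (minus strand, chr4:129807461-129807520) had levels of -1.72, -1.67, -1.60 and -1.79 in fasted brain, against -1.78, -1.63, -1.75 and -1.87 in fed brain. A_55_P1963965 (minus strand, chr4:129807469-129807528) had levels of -1.78, -1.71, -1.60 and -1.93 in fasted brain, against -1.88, -1.79, -1.85 and -2.04 in fed brain. The groups overlapped on both, with log2 differences of 0.07 ± 0.06 and 0.14 ± 0.08.

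**Figure D2:**
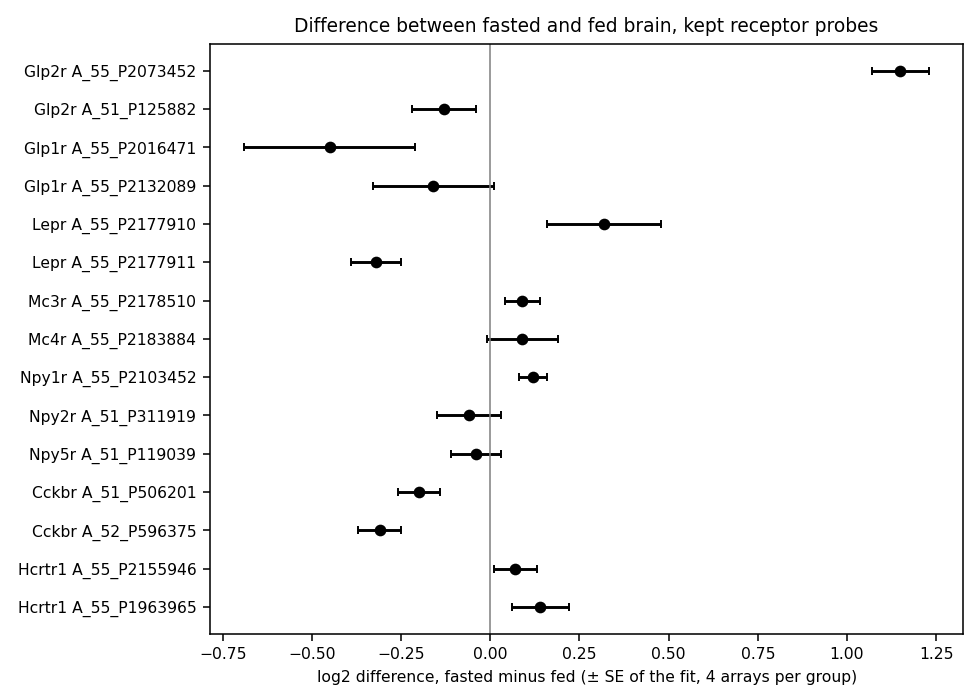
Log2 difference, fasted minus fed, for each of the 15 kept receptor probes, with bars for ± 1 SE of the fit over 4 arrays per group. Glp2r A_55_P2073452 stands at 1.15, and the other probes lie between -0.45 and 0.32.

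Over the 15 kept probes, 7 had a higher and 8 a lower mean in fasted brain. Their median log2 difference was -0.04, beside -0.01 over all 26066 kept probes, and their median absolute difference was 0.14, beside 0.10. In the limma fit across all kept probes, 4417 or 16.9% of them had an adjusted p under 0.05. Among these were 3 of the 15, Glp2r A_55_P2073452 (higher), Lepr A_55_P2177911 and Cckbr A_52_P596375 (both lower). Under the replicate block 3957 of all kept probes passed, and 4 of the 15, Cckbr A_51_P506201 (lower) being added. The groups did not overlap for 6 of the 15, and for 24.8% of all kept probes. Since this comparison was in view when the members were chosen, these counts are no test of them and nothing is read from them. Of the probes past the threshold the smallest difference in size was -0.31, on Cckbr A_52_P596375, and of those that were not past it the largest was -0.45, on Glp1r A_55_P2016471.

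The arrays lay on 2 slides with 2 arrays of each group on each, and 12 of the 15 probes kept the sign of their difference on both slides. The exceptions were Glp2r A_51_P125882, Mc4r and Npy5r, none of which had a difference over 0.3 in size on either slide. Some probes that kept their sign were as small, such as Mc3r at 0.15 and 0.03. The share that kept its sign over all kept probes is not given. Both slides belong to the comparison that was in view when the members were chosen, so nothing is read from this count. Slide itself was not used to choose the members and could be tested on them, as slide 2 minus slide 1 with the feeding group in the fit. Of the 15 probes 0 passed (limma, smallest adjusted p = 0.145), and 1 had an unadjusted p under 0.05, Glp1r A_55_P2016471, at 0.58 ± 0.15 (SE). Over all kept probes 0.844% passed. The median absolute slide difference was 0.05 for the receptor probes and 0.05 for all kept probes. On each slide the fasted samples took positions 1 and 3 and the fed samples 2 and 4, so position and fasting cannot be told apart.

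**Figure D3:**
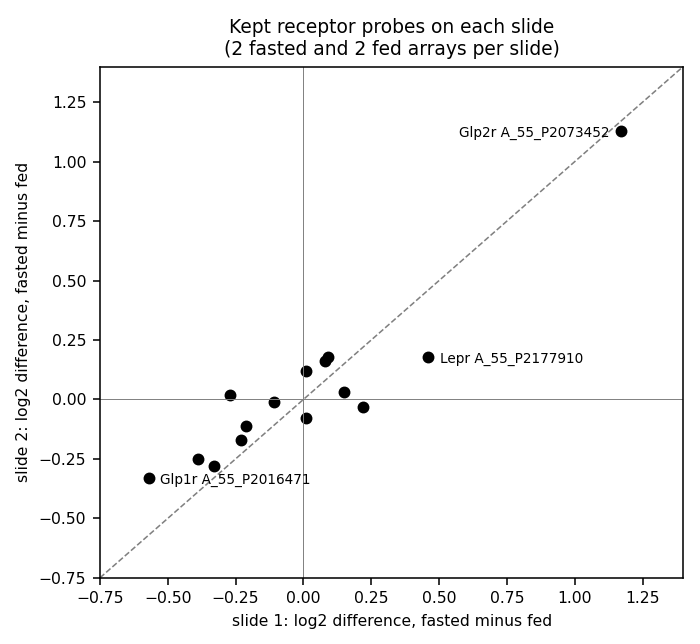
Log2 difference, fasted minus fed, of the 15 kept receptor probes on slide 1 (horizontal axis) and slide 2 (vertical axis), each from 2 fasted and 2 fed arrays, with the dashed line marking equal values. Glp2r A_55_P2073452 lies near the line at 1.17 and 1.13, and Lepr A_55_P2177910 lies at 0.46 and 0.18.

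The ligands of these receptors and related peptides formed a list of 56 genes, of which 41 were measured. Of these, 4 rose and 8 fell in fasted brain and 29 did not pass (limma, adjusted over 16108 genes), with a median log2 difference of 0.04 beside -0.01 over all genes. That is 9.76% higher and 19.5% lower, beside 9.95% and 9.41% of all genes. With median scaling 5 rose and 5 fell. Agrp, the antagonist of Mc3r and Mc4r, rose by 1.61 ± 0.13 (SE; adjusted p = 0.000855), and averaged -1.54 ± 0.09 in fasted brain, against -3.15 ± 0.29 in fed brain (SD, n = 4 each). Pomc, the precursor of the agonist alpha-MSH, gave -0.26 ± 0.08 with an adjusted p of 0.0491, and 0.0562 with the replicate block. Npy, the ligand of Npy1r, Npy2r and Npy5r, gave 0.11 (adjusted p = 0.0915, and 0.0492 without fed replicate 4), Hcrt, the orexin precursor, 0.08 (adjusted p = 0.395), and Cck, the precursor of cholecystokinin, 0.02 (adjusted p = 0.733). Gcg, the precursor of GLP-1 and GLP-2, and Lep, which encodes leptin, were well above background on 0 of 8 arrays, and Pyy, another ligand of the Y receptors, on 3.

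Peptides of the list that bind other receptors moved both ways. Vip, Tac1 and Pdyn, the precursors of vasoactive intestinal peptide, substance P and dynorphin, rose by log2 differences of 0.29, 0.20 and 0.24 (limma adjusted p = 0.00874, 0.0129 and 0.023). Apln, which encodes apelin, fell by 0.85 and Insl5, a peptide of the relaxin family, by 0.66 on the log2 scale (adjusted p = 0.00131 and 0.000652). Kiss1, the kisspeptin precursor, fell by 0.29 and the neurotrophin Bdnf by 0.30 (adjusted p = 0.0248 and 0.0311). With 1 array left out the number of ligands that passed was 5 to 11, with 5 without fasted replicate 1, 7 without fasted replicate 2, 6 without fed replicate 1 and 6 without fed replicate 2. Agrp, Insl5, Apln, Vip and Tac1 passed whichever array was left out, while Pdyn, Kiss1, Bdnf and Pomc each missed the threshold for 4 to 6 of the 8 arrays left out, with adjusted p up to 0.115.

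Other receptors of appetite and gut hormones formed a list of 66 genes, of which 46 were measured. Of these, 3 rose and 4 fell (limma), 6.52% and 8.70%, with a median log2 difference of -0.03. With median scaling 3 rose and 2 fell. Crhr1, the receptor for corticotropin-releasing hormone, fell by 0.32 on the log2 scale (adjusted p = 0.00621) and by 0.28 on its other probe (adjusted p = 0.0191). Qrfpr, the receptor for the peptide QRFP, fell by 0.34 (adjusted p = 0.018), while its other probe gave -0.26 (adjusted p = 0.35), and it did not pass under normexp background correction (0.063) or with its probes averaged (0.0976). Adcyap1r1, the PACAP receptor, fell by 0.14 (adjusted p = 0.0306). Adipor2, an adiponectin receptor, rose by 0.33 (adjusted p = 0.0234). Insr, the insulin receptor, gave 0.16 (adjusted p = 0.0301) on its brightest probe. Its 2 other kept probes gave 0.01 and 0.26, and neither of them passed. With its probes averaged Insr gave 0.14 (adjusted p = 0.0711). Kiss1r, the kisspeptin receptor, rose by 0.16 (adjusted p = 0.0405). With the replicate block neither Insr nor Kiss1r passed (0.0603 and 0.0845). Vipr1, a receptor for vasoactive intestinal peptide, gave -0.22 (adjusted p = 0.0444) on its brightest probe and 0.64 (adjusted p = 0.128) on the other, so its direction is unsettled.

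Close relatives of the members in the list did not pass. Cckar, the other cholecystokinin receptor, was well above background on 1 fasted and 3 fed arrays and gave -0.33 (limma adjusted p = 0.404). Gipr, the receptor for the gut hormone GIP, gave 0.09 (adjusted p = 0.734), and Npy4r, the receptor for pancreatic polypeptide, 0.09 (adjusted p = 0.865) on its brighter probe and -0.03 (adjusted p = 0.913) on the other. Hcrtr2, the other orexin receptor, and Ghsr, the ghrelin receptor, were well above background on 0 of 8 arrays. With 1 array left out the number of these receptors that passed was 3 to 6. It was 3 without fasted replicate 1, fed replicate 1, fed replicate 2 or fed replicate 4, and 4 without fasted replicate 4. Crhr1 and Qrfpr passed whichever array was left out, while Adipor2, Insr, Adcyap1r1, Kiss1r and Vipr1 each missed the threshold for 2 to 7 of the 8 arrays left out, with adjusted p up to 0.105.

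**Figure D4:**
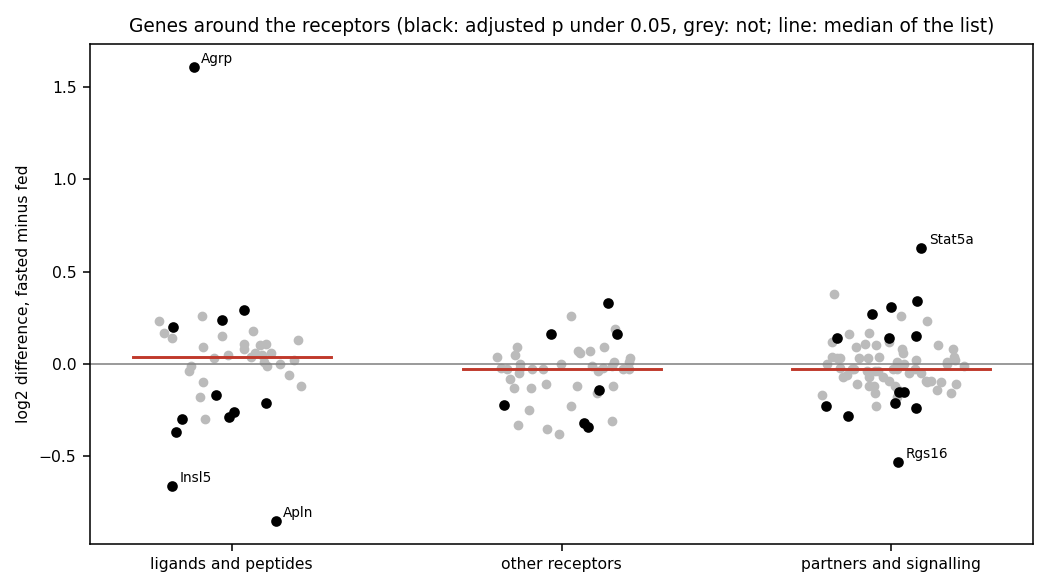
Log2 difference, fasted minus fed, of each measured gene in the lists of ligands and peptides (41 genes), other receptors (46) and partners and signalling (75). Black points passed limma at an adjusted p under 0.05, grey points did not, and the line is the median of the list, at 0.04, -0.03 and -0.03. Agrp stands highest at 1.61 and Apln lowest at -0.85.

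Partners and downstream signalling of the receptors formed a list of 79 genes, of which 75 were measured. Of these, 7 rose and 7 fell (limma), 9.33% each, with a median log2 difference of -0.03. With median scaling 6 rose and 4 fell. In the leptin pathway Stat5a, a transcription factor downstream of JAK2, rose by 0.63 ± 0.08 (adjusted p = 0.0031) and was dim, well above background on 4 fasted and 3 fed arrays. Ptpn11, the phosphatase SHP2 that binds the leptin receptor, rose by 0.15 (adjusted p = 0.0135), and Ptpn1, a phosphatase that acts on JAK2, fell by 0.15 (adjusted p = 0.0126). Ptpn1 gave -0.27 on its other probe (adjusted p = 0.225) and did not pass under median scaling (0.0609), under normexp (0.0667) or with its probes averaged (0.0949). Socs3, an inhibitor of leptin receptor signalling, gave -0.23 (adjusted p = 0.0618, and 0.0245 with the replicate block). Stat3 gave -0.12 (adjusted p = 0.0653, and 0.04 with slide as a block), and Jak2 gave -0.16 (adjusted p = 0.0791, with 0.0472 with slide as a block and 0.0399 without fed replicate 2). Leprot, which shares the start of the leptin receptor gene, gave -0.03 (adjusted p = 0.701), and Mrap2, an accessory protein of Mc4r, 0.16 (adjusted p = 0.0664).

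Among partners of receptors coupled to G proteins, Rgs16, which switches off G protein signals, fell by 0.53 on the log2 scale (limma adjusted p = 0.000952) and Gnai3, an inhibitory alpha subunit, by 0.23 (adjusted p = 0.00728). Of the potassium channel subunits gated by G proteins, Kcnj6 fell by 0.24 (adjusted p = 0.0153), and Kcnj3 gave 0.34 (adjusted p = 0.00743) on its brightest probe and -0.15 (adjusted p = 0.127) on the other. Ramp2, an accessory protein of calcitonin family receptors, rose by 0.27 (adjusted p = 0.00874). With 1 array left out the number of partners that passed was 8 to 14, with 8 without fasted replicate 1 and 9 without fasted replicate 2, fed replicate 3 or fed replicate 4.

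Markers of brain regions and cell types were read beside these values, as the sum over a list of signal divided by the array's 75th percentile. Of 15 hypothalamic markers 12 were measured, and their sum was 22.5 to 24.2 in fasted and 22.7 to 23.7 in fed brain. Agrp (1.61) was higher and Pomc (-0.26) and Nr5a1 (-0.15) were lower in limma. The sum is carried by brighter markers such as Oxt, so the change of Agrp barely enters it. Sim1, Nkx2-1 and Otp, also on the hypothalamic list, were not above background on enough arrays to be kept. All 8 neuronal markers were measured, with a sum of 172.0 to 180.0 in fasted and 165.0 to 173.0 in fed brain. The sum of 14 glial markers was 95.2 to 100 in fasted and 104.0 to 109.0 in fed brain, with 1 higher and 5 lower by limma. That of 9 markers of hippocampus and cortex was 27.9 to 29.7 in fasted and 25.5 to 26.8 in fed brain, with Wfs1 (0.34) and Spink8 (0.8) higher and Rorb (-0.2) lower in limma, and that of 7 striatal markers 70.7 to 73.2 in fasted and 67.7 to 69.6 in fed brain. Of 12 brainstem markers 3 were measured, with a sum of 0.236 to 0.464 in fasted and 0.206 to 0.273 in fed brain. For the choroid plexus, 9 of 10 markers summed to 37.4 to 41.2 in fasted and 37.9 to 43.0 in fed brain, with Clic6 (0.33) higher in limma. Of 7 pituitary markers 6 were not kept. The 5 olfactory bulb markers summed to 2.76 to 4.35 in fasted and 3.13 to 7.92 in fed brain, where fed replicate 4 was far above the other arrays. The 6 measured of 8 markers of ependyma and tanycytes summed to 4.98 to 6.32 in fasted and 5.8 to 6.65 in fed brain, with 2 lower. The 11 markers of meninges and vessels summed to 23.2 to 24.7 in fasted and 24.0 to 25.1 in fed brain, with 1 higher and 3 lower. The 6 measured of 8 cerebellar markers summed to 9.35 to 9.56 in fasted and 8.51 to 10.2 in fed brain. The part of these differences in the receptor values was not tested.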

How the data were processed

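The deposited scanner files give the brightness of each spot as an intensity. Per the file headers they were made with Feature Extraction 11.0.1.1 on a design that refers to mm9, while version 10.10.1.1 of the same software is given per the submitters' processing notes. The deposited series table holds a ratio per probe, which equals the scaled scanner signal up to a constant for each probe (spread over arrays 0.000179 on the log2 scale). The baseline behind that constant is unknown, and the table was used only as an alternative. Its column medians over the kept probes were 0.99 to 1.01.

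The log2 of each array's 75th percentile (1651 to 1944 intensity units) was subtracted from the log2 of the processed signal. Controls were dropped, as were 128 to 217 spots per array that the scanner software marked as outliers, the remaining spots of a probe were averaged, and no spot was saturated. Between 24567 and 27220 probes per array were well above background. For this, a share of 0.5 or more of the spots had to be, and 26066 probes passed on at least 4 of the 8 arrays. The RefSeq gene table, used for names only, held accessions of 27421 probes, and 507 further probes carried an older name of 1 gene and were moved to its current name. The number of arrays limits the precision.

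The titles of the samples gave the groups and the numbers of the replicates. The comparison used lmFit and eBayes of limma 3.58.1 in R 4.3.3 (fasted minus fed, two-sided, Benjamini-Hochberg over all kept probes, or over 16108 genes for the lists, threshold 0.05). Each gene is represented by its brightest kept probe over all arrays. The fit was tested on simulated data. Same-numbered arrays deviated together from their group means, at r = 0.18, 0.28, 0.29 and 0.18, so the replicate block is given where it changes a call. A fasted and a fed array of unlike number gave 0.13 and 0.27 on slide 1, and 0.05 and 0.11 on slide 2. Same-numbered arrays also share a slide and neighbouring positions. The alternatives were other scalings, background corrections and filters, retained outlier spots, the deposited table, slide and replicate blocks, each slide alone, gene means over probes, and each array left out.

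The members and the lists were chosen with earlier results of these data known. The genes named are all members, up to 8 genes of each list with the smallest p among those that passed, a fixed set of appetite genes, the 3 genes most like the member with the largest difference, and, after their values were seen, neighbours of Glp2r.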

Additional observations from a re-analysis of the deposited data

Results flagged for a closer look

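For each kept receptor probe the 4 arrays of a group were checked for 1 array that stood apart from the other 3 by Dixon's ratio of gap to range. Of the 30 groups of arrays 3 held such an array, where chance gives about 1 in 20. On Glp2r A_51_P125882, fasted replicate 1 was at -4.21, with the other fasted arrays between -3.88 and -3.86. On Lepr A_55_P2177910, fed replicate 1 was at -0.60, with the other fed arrays between 0.04 and 0.09. On Npy1r A_55_P2103452, fasted replicate 3 was at 0.61, with the other fasted arrays between 0.46 and 0.47.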

How the results depend on the processing

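As a description of the fit and no test of the members, the number of receptor probes past the threshold was 3. It was 2 under normexp background correction, where Lepr A_55_P2177911 was lost. It was 4 with probes required on all 8 arrays or with the replicate block, where Cckbr A_51_P506201 was added. The number over all probes moved as well, from 4417 to 2846 under normexp and 3957 with the replicate block. It was 4759 with probes required on all 8 arrays, where fewer probes are tested. With 1 array left out 3 to 4 receptor probes passed, beside 2782 to 3788 of all probes. On slide 1 alone and on slide 2 alone, where each group has 2 arrays, limma called 0 of all kept probes. The 0 receptor probes and 0 genes of each list called there therefore say nothing about them. On the 2 slides 17 and 7 ligands had an unadjusted p under 0.05, as did 7 and 7 other receptors and 17 and 9 partners. The share over all genes is not given for these, and nothing is read from them. The difference of Glp2r A_55_P2073452 was 0.91 to 1.19 over 19 alternatives, with 0.91 under normexp. Of the ligands 12 of 41 passed, and 13 of 38 with probes required on all 8 arrays. Without the filter on dim probes 7 of 56 passed, among them Gcg and Gip, which the filter leaves out. With 1 array left out 5 to 11 passed. Leaving out the genes that also serve as region markers, an alternative added after seeing the data, 10 passed. Of the other receptors 7 passed, 3 under normexp, 2 without the filter, 4 with a gene's probes averaged and 3 to 6 with 1 array left out. Averaging its probes turned Vipr1 to 0.21 (adjusted p = 0.306). Of the partners 14 passed, 9 under normexp, 8 without the filter and 8 to 14 with 1 array left out. More of the partners passed under quantile scaling (17), with slide as a block (16) and with a gene's probes averaged (16). The replicate block gave 11 ligands, 7 other receptors and 14 partners. Among the genes named, the block moved Pomc, Insr and Kiss1r above and Socs3 below the threshold and changed no other call. Slide as a block moved Stat3 and Jak2 below it. Named genes that missed it in a further alternative with all 8 arrays were Pdyn and Kiss1 without the filter, Bdnf without it and under median scaling, Pomc under these and under quantile scaling, normexp and averaged probes, Qrfpr under normexp and averaged probes, Adipor2 without the filter, Insr, Kiss1r and Adcyap1r1 without the filter and under normexp, Insr also with averaged probes, Adcyap1r1 also under median scaling, Vipr1 without the filter and under median scaling, Kcnj3 with averaged probes, and Ptpn1 under median scaling, normexp and averaged probes. Stat3 passed under quantile scaling, and Socs3 with probes required on all 8 arrays. Over all probes 4417 passed, 2846 under normexp and 2605 without the filter, and 2782 without fasted replicate 1, 2935 without fasted replicate 2 and 2879 without fed replicate 2. The slide contrast called 0 receptor probes under every alternative run for it. The cause of these changes was not tested. Dim probes limit the second probes of Glp2r and Lepr and both of Glp1r.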

Other observations

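Of the 66 other receptors of appetite and gut hormones on the array, 20 were not well above background on at least 4 arrays. Besides Hcrtr2 and Ghsr these included, named here after their detection was seen, Nmur1 and Nmur2, the receptors for neuromedin U, Galr1, Galr2 and Galr3, the galanin receptors, Gfral, the receptor for GDF15, and Brs3, a bombesin receptor. Of the 56 ligands and peptides 15 were not measured, and of the 79 partners 4.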
